A study of Mus musculus with 10 samples.

Results

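Myc and Pvt1 are 2 neighbouring genes among the 31053 rows of the expression matrices, and their UMIs (unique molecular identifiers, each standing for 1 captured transcript) were followed in tumors grown from E0771 cells, a mouse mammary carcinoma line. Both were found by symbol, each in 1 row. The hosts were female C57BL/6 mice aged 16 weeks that received E0771 cells in a mammary fat pad, and tumors were taken after 21 days for droplet-based single-cell RNA sequencing from the 3′ end. The 10 libraries comprised 5 from wild-type (WT) hosts and 5 from littermates lacking Argonaute 1 in endothelial cells (EC-AGO1-KO, written KO here), a deletion driven by a VE-Cadherin-Cre transgene on floxed AGO1. The deletion lies in the host endothelium, and the injected tumor cells are the same line in every mouse. One batch (batch 1) comprised a single library of each genotype, and the other (batch 2) comprised 4 per genotype. KO 2+3 and KO 5+6 of batch 2 each pooled 2 tumors.

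Myc encodes a basic helix-loop-helix transcription factor that pairs with Max and raises transcription of genes for ribosome biogenesis, metabolism and cell growth. Its messenger RNA is short-lived, and the gene is induced by growth signals in many dividing cells. Pvt1 is a long noncoding RNA gene on the same chromosome, widely studied as a neighbour that is gained together with Myc in tumors. In the RefSeq annotation of GRCm38, the build named for the files as mm10, Myc (ENSMUSG00000022346) lies on the plus strand of chromosome 15 from 61985341 to 61990361. Pvt1 (ENSMUSG00000097039) lies on the same strand from 62037986 to 62260215, starting 47625 bases beyond the end of Myc. The span of Myc is 5021 bases and that of Pvt1 is 222230 bases, exons and introns together.

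Cells were the 65298 barcodes with 200 to 7000 detected genes and at most 10% mitochondrial UMIs. Tumor-marker cells carried at least 3 UMIs summed over Cdh13, Esx1, Fmnl2 and Aebp1. Immune-marker and stromal-marker cells carried fewer than 3 of those and at least 3 UMIs of 1 immune list (T cell, B cell, myeloid) or 1 stromal list (fibroblast, pericyte, endothelial). Neither Myc nor Pvt1 entered a class rule. The classes held 37279, 1218 and 789 cells, and 25983 cells met no rule. Batch 2 held 36255 of the tumor-marker cells, whereas batch 1 held 853 of the immune-marker cells. Only 11 stromal-marker cells came from batch 1, so values for stromal cells are from batch 2 alone. Levels are UMIs of the gene per 1000000 UMIs of the class in a library (CPM), with Actb left out of the totals. UMIs from the 3′ end are not scaled by gene length, so levels are compared between cells and not between the genes.

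The label of the tumor-marker class was checked against genes outside its rule. Vim, an intermediate filament of mesenchymal cells, was at 2835 ± 658 CPM (SD, n = 10 libraries) and Trp53 at 97.0 ± 13.3 CPM. In unassigned, stromal-marker and immune-marker cells, Vim was at 3101, 2353 and 1355 CPM and Trp53 at 103, 68.7 and 75.6 CPM. Neither gene sets the tumor-marker class apart from unassigned cells. Ptprc, the pan-leukocyte marker CD45, was at 8.77 ± 1.34 CPM in tumor-marker cells against 782 ± 361 CPM in immune-marker cells. The epithelial genes Krt18 (0.11 ± 0.19 CPM) and Epcam (1.10 ± 0.93 CPM) were nearly absent from tumor-marker cells, and Krt8 was at 79.9 ± 47.1 CPM. The class is therefore named by its markers, and an epithelial identity is not read from these genes. Fibroblast markers summed to 103 to 660 CPM in tumor-marker cells, and 839 tumor-marker cells also carried 3 or more UMIs of an immune or stromal list.

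Depth differed between batches and could not be separated from sequencer, cell number or any other batch property. Library totals over all barcodes were 8323896 to 10591577 UMIs. The cells kept numbered 968 and 1194 in the batch 1 libraries and 6212 to 10190 in those of batch 2. Libraries shared at most 28 cell barcodes in a pair. Ago1, the gene deleted in the host endothelium, had 0 UMIs in the 6 WT and 16 KO endothelial-marker cells, so the genotype labels could not be checked from it.

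In tumor-marker cells, Pvt1 took 0.373% and 0.386% of the UMIs of the batch 1 libraries and 0.998% to 1.35% of those of batch 2, and Myc was detected in every library. Myc was at 207 CPM in the WT and 196 CPM in the KO library of batch 1. In batch 2 it was at 351, 399, 394 and 465 CPM in WT 1, WT 3, WT 4 and WT 5, and at 364, 477, 448 and 497 CPM in KO 1, KO 2+3, KO 4 and KO 5+6. Every batch 2 library lay above both batch 1 libraries, and WT and KO values of batch 2 overlapped. For Pvt1, the batch 1 libraries were at 3728 CPM (WT) and 3862 CPM (KO). In batch 2 its level was 12099, 11637, 11935 and 13549 CPM in the WT libraries in the same order, and 9984, 11494, 11429 and 11542 CPM in the KO libraries. All 4 KO libraries of batch 2 lay below all 4 WT libraries, while in batch 1 the order was the opposite. Of 11139 genes, 0.826% were without overlap in batch 2 and lower in KO, and 3.23% in either direction. The batch 2 levels rest on 15152 Myc UMIs and 422412 Pvt1 UMIs over 36255 cells.

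**Figure D1:**
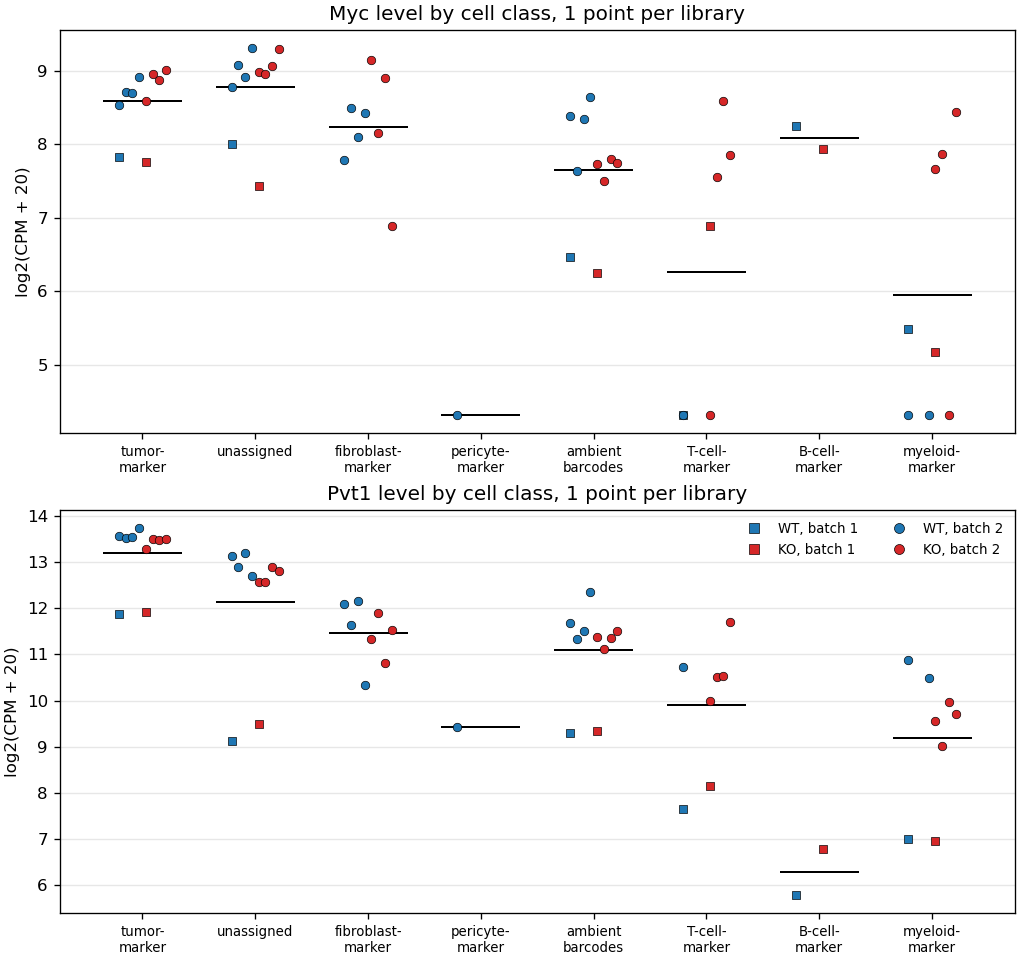
Level of Myc (upper panel) and Pvt1 (lower panel) as log2(CPM + 20) in each cell class and in ambient barcodes; each point is 1 library with at least 10 cells of the class, squares are batch 1, circles batch 2, and the line is the mean over libraries. Pvt1 is highest in tumor-marker cells in every library, and B-cell-marker cells of batch 1 hold Myc at 225 and 284 CPM with little Pvt1.

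Both genes were higher in tumor-marker than in immune-marker cells of the same library. Myc was at 100.8 ± 107.8 CPM and Pvt1 at 1364 ± 906 CPM in immune-marker cells (SD, n = 10 libraries), against 380 ± 106 and 10126 ± 3447 CPM in tumor-marker cells. The immune-marker mean of Pvt1 joins 115 ± 3.4 CPM in batch 1 (n = 2), which held most immune-marker cells, with 1677 ± 705 CPM in batch 2 (n = 8). It was 646 CPM over the 3 libraries left when 5 UMIs of a list were asked for. The difference by edgeR's quasi-likelihood test with library as a block was 2.35 (SE 0.33, adjusted p = 9.6e-08) on the log2 scale for Myc and 3.91 (SE 0.24, adjusted p = 9.0e-18) for Pvt1. Of all 9052 genes tested, 39.6% were called higher in tumor-marker cells and 16.5% lower, and the median gene differed by 0.46. Relative to that median, Myc was higher by 1.89 and Pvt1 by 3.45. Within batch 2 alone the differences were 2.20 for Myc and 3.63 for Pvt1, with a median gene at 0.89. In simulated counts the test between these classes gave 21 false calls, more than its threshold allows.

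Myc in immune-marker cells rested on few molecules. The batch 1 libraries were at 29.6 CPM (WT) and 26.2 CPM (KO), from 29 and 28 UMIs. In batch 2, 1 UMI was seen over the 82 cells of the 4 WT libraries and 22 UMIs over the 283 cells of the 4 KO libraries. WT 3, WT 4 and WT 5 held no Myc UMI, which allows levels of up to 314, 991 and 247 CPM at a count of 3. These limits cover counting error only.

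Among immune cells, Myc was highest in B-cell-marker cells. In batch 1 it was at 284 CPM in the 32 WT cells and 225 CPM in the 23 KO cells, from 13 UMIs in all. The exact 95% counting intervals, 123 to 560 CPM and 72.9 to 524 CPM, include the tumor-marker levels of the same libraries. Those cells held 3 Pvt1 UMIs, or 0.23 Pvt1 UMIs per Myc UMI, whereas batch 1 tumor-marker cells held 18.8 per Myc UMI. With 2 libraries the smallest exact p of a sign-flip test is 0.50, so the order of B-cell-marker cells in this ranking was not testable. Myeloid-marker cells of batch 1 had Myc at 24.8 and 16.0 CPM over 685 cells, and T-cell-marker cells had 0 and 99.1 CPM over 91 cells.

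Stromal-marker cells, which were mostly fibroblast-marker cells (645 of 789), were closer to tumor-marker cells in Myc than in Pvt1. Myc was at 297 ± 103 CPM and Pvt1 at 2795 ± 1158 CPM in stromal-marker cells (SD, n = 8 libraries). Pvt1 was higher in tumor-marker cells by 2.29 (SE 0.13, edgeR adjusted p = 1.6e-63), where 18.8% of 8982 genes were called higher and 8.86% lower. Those 1693 higher and 796 lower calls became 1061 and 904 without TMM factors (edgeR's library scaling) and 616 and 903 with DESeq2. Myc was higher by 0.67 (SE 0.17, edgeR adjusted p = 0.00085), of which 0.42 was the difference of the median gene, leaving 0.25 for Myc and 1.88 for Pvt1. In simulated counts this test gave more false calls than its threshold allows. The call for Myc was lost with DESeq2 (0.42, adjusted p = 0.12). Esx1, a tumor marker of the rule, was at 85.2 ± 64.2 CPM in stromal-marker cells, and its part in these levels was not tested.

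Ambient barcodes, which hold 1 to 50 UMIs and stand for free RNA, carried both genes. Their Myc level was 56.1 and 68.6 CPM in batch 1 and 161 to 379 CPM in batch 2, and their Pvt1 level was 610 and 629 CPM in batch 1 and 2191 to 5222 CPM in batch 2. Tumor-marker cells were above ambient barcodes in 10 of 10 libraries for both genes, by 0.94 ± 0.51 for Myc and 2.10 ± 0.36 for Pvt1 in log2(CPM + 20). Each exact two-sided sign-flip p was 0.0020, the smallest that 10 libraries allow, and 0.0026 after adjustment over 4 comparisons. Immune-marker cells were below ambient barcodes in 10 of 10 libraries for Pvt1, by -1.18 ± 0.70 (exact sign-flip p = 0.0020). For Myc the mean difference was -1.43 ± 1.79, with 3 of 10 libraries above (exact sign-flip p = 0.020, adjusted p = 0.020). It rests on WT 3, WT 4 and WT 5, which held no Myc UMI and take their value from the added 20 CPM, and in WT 3 and WT 4 the limit of a count of 0 lies above the ambient level. No direction is read for Myc in immune-marker cells against free RNA. With barcodes of 1 to 20 UMIs as ambient, Pvt1 there was at 1168 and 1816 CPM in batch 1 and up to 7390 CPM in batch 2, and tumor-marker cells were above by 1.53 for Pvt1 and 0.67 for Myc, in 10 of 10 libraries each.

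In the order of mean levels, Pvt1 descended from tumor-marker cells (10126 CPM) through unassigned cells (6069 CPM), fibroblast-marker cells (3043 CPM), ambient barcodes (2549 CPM), T-cell-marker cells (1335 CPM) and myeloid-marker cells (814 CPM), with pericyte-marker cells (672 CPM, 1 library) and B-cell-marker cells (62.7 CPM) last. Tumor-marker cells exceeded unassigned cells in 10 of 10 libraries by 1.05 in log2(CPM + 20) (exact sign-flip p = 0.0020, adjusted p = 0.0098). Unassigned cells exceeded fibroblast-marker cells in 8 of 8 libraries (exact sign-flip adjusted p = 0.020). Fibroblast-marker cells and ambient barcodes did not differ beyond their spread (-0.06, exact sign-flip adjusted p = 0.92), and the 2 steps below them passed (exact sign-flip adjusted p = 0.039 each). For Myc the order was unassigned (451 CPM), tumor-marker (380 CPM), fibroblast-marker (312 CPM), B-cell-marker (254 CPM), ambient (206 CPM), T-cell-marker (121 CPM) and myeloid-marker (95.8 CPM). None of the 4 neighbouring steps with more than 2 shared libraries passed (exact sign-flip adjusted p from 0.14 to 0.94). These means join different libraries, with B-cell-marker cells from batch 1 alone and fibroblast-marker cells from batch 2 alone. Within batch 1 the Myc mean of B-cell-marker cells (254 CPM) lay above those of tumor-marker (202 CPM), unassigned (195 CPM) and ambient (62.4 CPM) barcodes. Unassigned cells are not a class without tumor markers. They held Esx1 at 223 ± 46.8 CPM, against 324 ± 70.6 CPM in tumor-marker and 20.1 ± 61.0 CPM in immune-marker cells. Krt8 was at 91.2 CPM in unassigned and 79.9 CPM in tumor-marker cells. Median depths in batch 2 were 363 to 438 UMIs in unassigned and 648 to 1323 UMIs in tumor-marker cells. How many unassigned cells are shallow tumor cells was not tested.

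The 2 genes behaved differently along the number of tumor-marker UMIs in a cell. In batch 1, Myc rose from 37.0 CPM in the 870 cells without a marker UMI to 203 CPM in the 867 cells with 10 or more, and Pvt1 from 128 to 3951 CPM. In batch 2, Pvt1 rose from 4729 CPM in 9207 cells without a marker UMI to 13201 CPM in 7555 cells with 10 or more. Myc in batch 2 was at 435 CPM without a marker UMI, 529 CPM with 1 and 394 CPM with 10 or more. Just outside the limit, the 8649 batch 2 cells with 2 marker UMIs held Myc at 514 and Pvt1 at 8956 CPM. Just inside it, the 7320 cells with 3 held 466 and 9974 CPM. Median depth rose over the same bins from 323 to 1512 UMIs per cell.

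**Figure D2:**
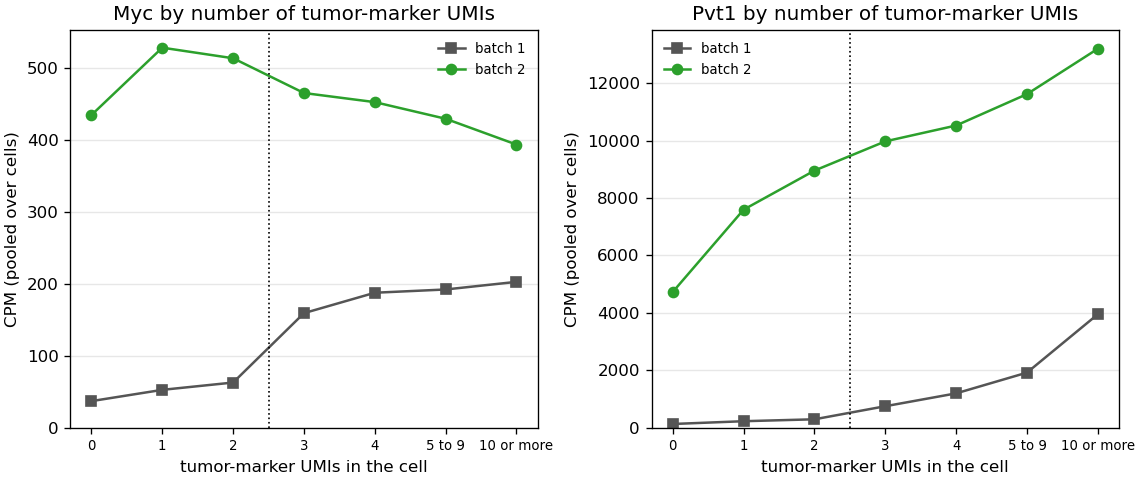
Pooled CPM of Myc (left) and Pvt1 (right) against the number of tumor-marker UMIs in the cell, for batch 1 (squares) and batch 2 (circles); the dotted line is the limit of 3 UMIs. Pvt1 climbs with marker UMIs in both batches, from 4729 to 13201 CPM in batch 2, while Myc in batch 2 stays between 394 and 529 CPM.

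To count cells at 1 depth, tumor-marker cells were thinned to 500 UMIs, leaving out 1 of the batch 1 and 6978 of the batch 2 cells. At that depth 9.35% and 8.73% of batch 1 cells and 14.8% to 20.7% of batch 2 cells held a Myc UMI. Unthinned, at median depths of 11412 and 838 UMIs, 75.9% of batch 1 and 28.6% of batch 2 tumor-marker cells held one. Immune-marker cells at 500 UMIs held a Myc UMI in 11 of 833 batch 1 cells (1.32%, exact 95% interval 0.66 to 2.35%).

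Most tumor-marker cells of batch 2 held a Pvt1 UMI, and so did many of the deeper cells of the other classes. At 500 UMIs, 94.8% to 97.8% of batch 2 tumor-marker cells held a Pvt1 UMI, with 74.4% to 86.7% holding 3 or more, against 69.6% and 68.6% of batch 1 cells. Batch 2 immune-marker cells at 500 UMIs held a Pvt1 UMI in 41 of 73 cells (56.2%, exact 95% interval 44.1 to 67.8%), with 292 shallower cells left out. In batch 1 it was 37 of 833 (4.44%, exact 95% interval 3.15 to 6.07%), with 20 left out. Of batch 2 unassigned cells at that depth, 6409 of 7618 (84.1%) held a Pvt1 UMI, and of stromal-marker cells 149 of 282 (52.8%). The shallower 18116 and 496 cells were left out. In batch 1, 19 of 142 unassigned cells (13.4%) held one. Unthinned, 27.4% of the 365 batch 2 and 17.6% of the 853 batch 1 immune-marker cells held one. The variance over the mean of Pvt1 UMIs per cell was 1.98 to 2.69 and that of Myc 0.97 to 1.43, where a Poisson count gives 1. The means were 1.79 to 6.74 UMIs for Pvt1 and 0.090 to 0.26 for Myc, so these ratios are not compared between the genes.

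**Figure D3:**
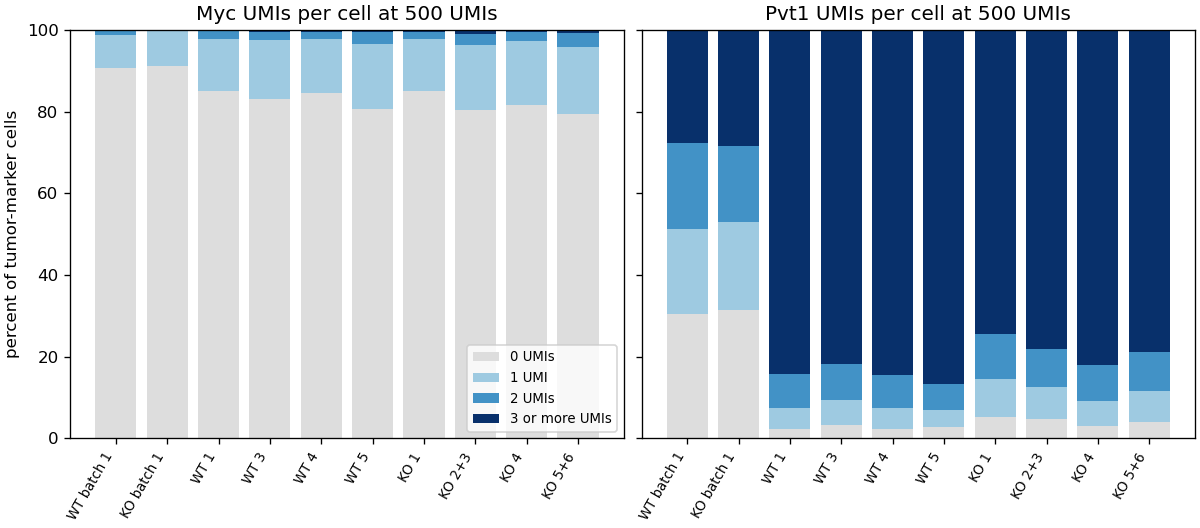
Percent of tumor-marker cells with 0, 1, 2 or 3 and more UMIs of Myc (left) and Pvt1 (right) after thinning every cell to 500 UMIs, 1 bar per library. Most cells hold no Myc UMI in any library, and 74.4% to 86.7% of batch 2 cells hold 3 or more Pvt1 UMIs.

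Cells with Myc were slightly more often cells with Pvt1. The log2 odds ratio of detecting both at 500 UMIs was 0.25 in WT and 0.29 in KO of batch 1. It was 0.40, -0.03, 0.46 and 0.42 in WT 1, WT 3, WT 4 and WT 5, and 0.09, 0.24, 0.84 and 0.23 in KO 1, KO 2+3, KO 4 and KO 5+6. Its mean was 0.32 ± 0.24 (SD, n = 10), positive in 9 of 10 libraries (exact two-sided sign-flip p = 0.0039). The departure in cells was small, since Pvt1 was almost everywhere in batch 2. In WT 1, 14.6% of cells held both, where independent detection gives 14.6%. In KO batch 1 the values were 6.37% and 5.99%. As a description, the mean for reference pairs was 0.69 ± 0.46 for Pvt1 with Neat1, 0.79 ± 0.41 for Pvt1 with Malat1 and 0.10 ± 0.55 for Pvt1 with Npm1. It was 0.10 ± 0.36 for Myc with Ncl, 0.03 ± 0.15 for Myc with Npm1 and 0.09 ± 0.17 for Myc with Malat1. The odds ratio rests on the few Pvt1-negative cells of batch 2, of which 9 to 26 per library held Myc.

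Loss of Argonaute 1 in the host endothelium was not accompanied by a detectable change of Myc or Pvt1 in tumor-marker cells. With batch in the model, edgeR's log2 difference of KO against WT was 0.07 for Myc (SE 0.11, 95% interval -0.17 to 0.31, adjusted p = 0.97). For Pvt1 it was -0.15 (SE 0.11, 95% interval -0.38 to 0.09, adjusted p = 0.89). Among 11141 genes, 0 were called (0%), with 606 at an unadjusted p under 0.05, and DESeq2 called 0. The direction for Myc turned when the pooled KO libraries (-0.073) or WT 1 (-0.017) were left out. The absence of overlap for Pvt1 in batch 2 was shared by 92 genes lower in KO (0.826% of 11139) and 268 genes higher (2.41%), 3.23% in all. Within batch 2 alone the edgeR difference of Pvt1 was -0.18 (SE 0.12, adjusted p = 0.85).

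The share of cells with a UMI followed the same direction for each gene. The mean share with a Pvt1 UMI at 500 UMIs was 1.47 percentage points lower in KO, with 94.8% to 97.0% in KO and 96.7% to 97.8% in WT of batch 2. The exact permutation p within batch was 0.029, where 140 arrangements allow 0.014 at the least, and 0.086 after adjustment over 3 comparisons. The share with a Myc UMI differed by 1.21 points (exact permutation p = 0.37) and the log2 odds ratio by 0.04 (exact permutation p = 0.86).

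In the other classes the intervals were wide. In stromal-marker cells the difference of KO against WT was 0.34 (SE 0.35) for Myc and -0.38 (SE 0.35) for Pvt1, with 0 of 918 genes called by edgeR (adjusted p = 0.99 for both) and 39 at an unadjusted p under 0.05. Leaving out 1 library moved Myc between 0.17 (without KO 1) and 0.58 (without KO 5+6), and Pvt1 between -0.62 (without WT 5) and -0.12 (without WT 4). In immune-marker cells Pvt1 differed by -0.31 (SE 0.29, edgeR adjusted p = 0.86), Myc was below the filter on low counts, and 0 of 197 genes were called, with 7 at an unadjusted p under 0.05. The difference between the KO effects in tumor-marker and immune-marker cells was -1.27 (SE 0.92) for Myc and -0.30 (SE 0.49) for Pvt1, with edgeR adjusted p = 1.0 for both. For Myc it was -2.97 (adjusted p = 0.87) in batch 2 alone. None of the 10699 genes was called, with 219 at an unadjusted p under 0.05, and since this test recovered no change in simulated counts, the absence of calls says nothing of a difference.

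**Figure D4:**
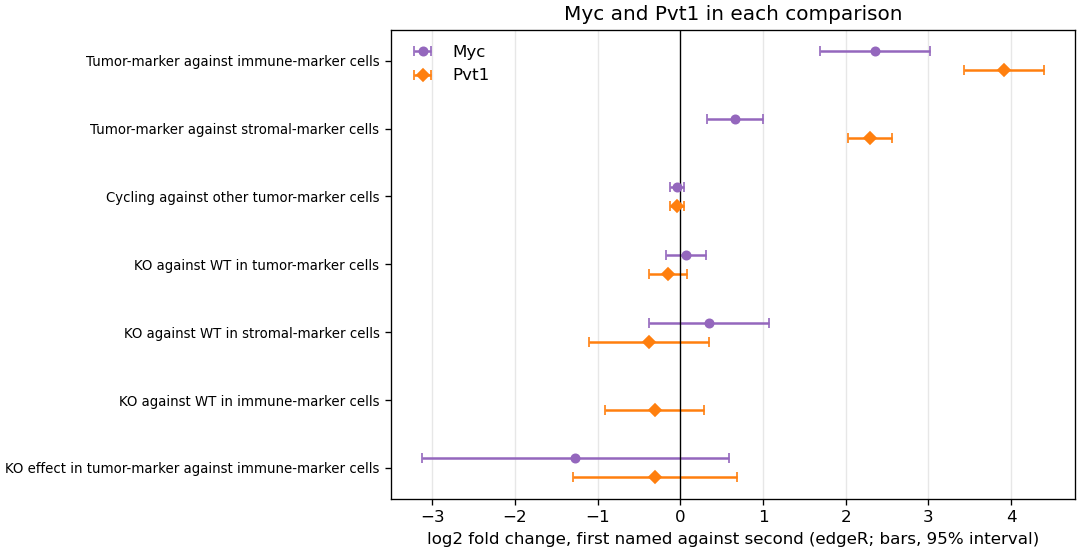
Log2 fold change of Myc (circles) and Pvt1 (diamonds) in 7 comparisons, the first named against the second, with 95% intervals from edgeR. The intervals of both genes lie above 0 for tumor-marker against immune-marker and against stromal-marker cells, and include 0 in the cycling comparison and in all KO comparisons; Myc was not tested in KO against WT in immune-marker cells.

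Cycling tumor-marker cells, those with at least 2 UMIs of 14 mitotic genes, did not differ in either gene over all libraries. The log2 difference from other tumor-marker cells was -0.04 (SE 0.04) for Myc and -0.04 (SE 0.04) for Pvt1 (edgeR adjusted p = 0.55 for both), where 10.8% of 9565 genes were called higher and 9.58% lower (20.4% in all). The 14 listed genes, which define the split, had a median difference of 3.15. For Pvt1 the batches went opposite ways. It was higher in cycling cells in 2 of 2 batch 1 libraries, by 0.27 and 0.29 in log2(CPM + 20), and lower in 8 of 8 batch 2 libraries, by -0.17 to -0.02. Batch 2 alone gave -0.11 (SE 0.02, edgeR adjusted p = 5.4e-05). Cycling cells were the deeper ones in each batch, with medians of 11909 against 8516.5 UMIs in batch 1 and 1187 against 727 in batch 2. The rule took 802 cells and left 222 in batch 1, whereas it took 10453 and left 25802 in batch 2. The cycling group is thus not drawn alike in the 2 batches, and the part of depth was not tested.

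The Myc targets listed here encode nucleolar, ribosome biogenesis and growth proteins. Against immune-marker cells, 27 of the 29 tested were called higher in tumor-marker cells and 0 lower, where 39.6% of all genes were called higher, with a median of 1.78 beside 0.46 for all genes. Among them were Polr1b, a subunit of RNA polymerase I (3.33), Cad, an enzyme of pyrimidine synthesis (2.50), Srm, spermidine synthase (2.45), and Wdr43, a nucleolar protein (2.23). Against stromal-marker cells 10 of 28 were called higher, where 18.8% of all genes were, with a median of 0.86 beside 0.42 for all genes. Between KO and WT tumor-marker cells, 0 of 30 were called and the median was 0.09, with 25 of 30 above 0 and the median gene at 0.00. The 4 with the widest differences there were Cad (0.32, SE 0.16), Rrp9 (0.28, SE 0.21), Cdk4 (0.28, SE 0.13) and Nle1 (-0.19, SE 0.27).

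The Myc network list comprises partners, antagonists and other genes of the wider network, not all of which act with Myc at its binding sites. Against immune-marker cells 1 of 12 tested was called higher, Mga (1.07), and 1 lower, the Max-binding repressor Mxd1 (-2.49), where 39.6% of all genes were called higher and 16.5% lower, with a median of 0.05. Against stromal-marker cells 4 of 12 were called higher and 0 lower, where 18.8% and 8.86% of all genes were, with a median of 0.68 beside 0.42 for all genes. Between KO and WT tumor-marker cells 0 of 13 were called, with a median of -0.02. In cycling cells the repressors Mxd4 (-0.85), Mxd1 (-0.44) and Mxi1 (-0.39) were lower and Mlx (0.40) was higher, the 4 calls among 12 tested, where 20.4% of all genes were called.

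Genes around Myc on chromosome 15 were listed as its neighbours. Of 8 tested against immune-marker cells, 3 were called higher: Sqle, squalene epoxidase of sterol synthesis (2.96), Asap1 (1.94) and Mtss1 (1.37), a share near the 39.6% of all genes. Their median was 0.43, beside 0.46 for all genes. Against stromal-marker cells 5 of 8 were called higher, where 18.8% of all genes were, led by Fam49b (1.50) and Mtss1 (1.41), with a median of 0.95. Between KO and WT tumor-marker cells 0 of 10 were called, with a median of 0.03. Of the nuclear long RNAs, Neat1 (2.01) and Kcnq1ot1 (2.20) were higher than in immune-marker cells and Malat1 (-0.83) was lower. Against stromal-marker cells 1 of 4 tested was called higher and 2 lower, where 18.8% and 8.86% of all genes were. Their median there was -0.02, with a range of -7.73 to 0.64. Between KO and WT tumor-marker cells, 0 of the 3 nuclear long RNAs tested were called.

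The genes most like each member were taken among 3711 genes with a mean of at least 50 CPM in tumor-marker cells. Over 16 sums of a class in a library with at least 50000 UMIs, 10 of them tumor-marker sums, the 5 most like Pvt1 in Pearson's r of log2(CPM + 20) were Pard3 (0.99), Rangap1 (0.99), Magi1 (0.99), Gm15398 (0.99) and Kcmf1 (0.99). Those most like Myc were Syne2 (0.99), Afap1 (0.98), Ptcd3 (0.98), Eml1 (0.98) and Tanc1 (0.98). Pvt1 ranked 69 for Myc with r = 0.95, and Myc ranked 269 for Pvt1. These points share libraries, depth and the class rule.

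Among tumors, the likeness of Myc and Pvt1 was lower. Over the 10 tumor-marker sums after removal of batch means, those near Myc included Ywhah (0.94), Vps37b (0.92), Brix1 (0.90) and Chtop (0.89), and those near Pvt1 included Ralgapa2 (0.94), Ahcyl2 (0.92), Antxr2 (0.91) and 8030462N17Rik (0.89). Pvt1 ranked 932 of 3711 for Myc. Over the 8 batch 2 libraries, the 1 relation tested, Pearson's r of Myc with Pvt1 was 0.32 (exact permutation p = 0.46) and Spearman's rho -0.10 (exact permutation p = 0.84). Without the 2 libraries farthest from the median of Myc, r was 0.63 over 6 libraries.

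The batches differed in both genes and in the kind of gene. In tumor-marker cells Myc was higher in batch 2 by 0.85 and Pvt1 by 1.40 on the log2 scale, after TMM scaling. Over the 10529 of 11141 tested genes with a RefSeq span, the median difference was -1.64 in the 2633 genes with the shortest spans (374 to 12224 bases), -0.61 and 0.19 in the middle groups and 0.90 in the 2632 longest (65833 bases and more). Pvt1, among the longest, stood above 73.4% of that group. Myc, among the shortest, stood above 90.0% of its group. Of the 30 Myc targets, 27 were called lower in batch 2 and 3 higher, with a median of -1.70. Over all genes, 40.4% were called lower and 36.1% higher (76.5% in all), with a median of -0.06. Malat1 was lower by -2.36 and Neat1 higher by 1.91. Actb took 1.99% and 2.27% of UMIs in batch 1 and 8.77% to 17.0% in batch 2. Immune-marker cells were 35.9% and 43.8% of batch 1 cells and 0.106% to 2.18% of batch 2 cells. Sequencer, depth and these properties differ together between the batches and cannot be told apart.

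**Figure D5:**
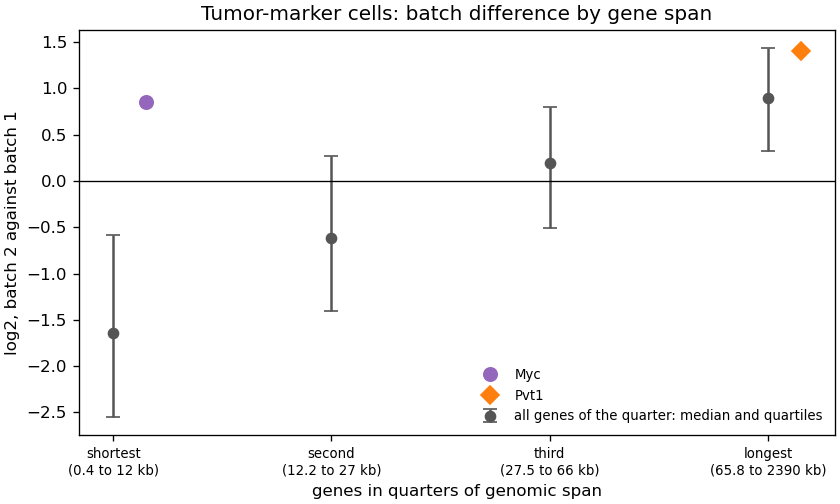
Log2 difference of batch 2 against batch 1 in tumor-marker cells for genes in 4 equal groups of genomic span; grey points and bars are the median and quartiles of each group, and coloured symbols are Myc and Pvt1. The medians climb from -1.64 in the shortest group to 0.90 in the longest, with Myc at 0.85 and Pvt1 at 1.40.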

How the data were processed

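The authors made the deposited counts, UMI counts per gene and barcode without normalization, with Cell Ranger 7.1.0 on mm10, per the labels and file headers. Whether reads in introns were counted is not given in the sources used here. The matrices held all barcodes.

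Barcodes were filtered as described, with no doublet caller; tumor-marker cells that also carried an immune or stromal list were set aside as an alternative. Actb (1.99% to 17.0% of UMIs) was left out of totals. Counts were summed per library and class with at least 10 cells and tested with edgeR 4.0.16 in R 4.3.3 (TMM, filterByExpr, quasi-likelihood, Benjamini-Hochberg adjusted p under 0.05), with batch (KO against WT) or library (between classes) as covariate; DESeq2 1.42.0 was an alternative. Levels used exact sign-flip or within-batch permutation tests in Python 3.11.15. Libraries are separate tumors or pools of 2, and tests measure the spread between them. Replicate numbers were not taken as pairs of hosts. The tests were checked on simulated counts with planted log2 changes of 1 in either direction, and smaller changes were not simulated. Changes of that size were mostly recovered for KO against WT (90.5%) and cycling (97%) in tumor-marker cells. For KO against WT, 33.3% were recovered in immune-marker and 26.7% in stromal-marker cells. In the tests between classes, most were missed and the share of false calls was above the adjusted p threshold, and for the difference of KO effects none was recovered. The exact intervals of levels and shares cover counting error only. The edgeR intervals come from the quasi-likelihood test and include the spread between libraries. For a count of 0, 3 counts were taken as the limit. Total UMIs per library, over all barcodes, were 8323896 to 10591577.

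The genes, classes and lists were chosen with earlier results of these data known. Genes named beside the 2 members are those of each list with the widest log2 differences in the comparison (up to 4) and the 5 most like each member, of which some are not reported here; Vim, Trp53, Krt8, Krt18, Epcam, Ptprc and Ago1 are checks. Of the lists, Zfp572 and Norad were not found by symbol and were not analysed here.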

Additional observations from a re-analysis of the deposited data

Results flagged for a closer look

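In 10 of 48 groups examined, 1 library stood apart from the rest of its group, where chance gives about 1 in 20. Of these 10, 5 are batch 1 libraries, below those of batch 2. In tumor-marker cells, Pvt1 in the batch 1 libraries was 3728 CPM (WT) and 3862 CPM (KO), each far under the 4 batch 2 libraries of its genotype. The share of tumor-marker cells with a Pvt1 UMI at 500 UMIs was likewise lowest in the batch 1 libraries (69.6% for WT, 68.6% for KO). Unassigned cells of KO batch 1 held Pvt1 at 704 CPM.

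Within batch 2, KO 1 stood below the other KO libraries in Pvt1 of tumor-marker cells, at 9984 CPM. Without KO 1 the log2 difference of KO against WT in Pvt1 was -0.13 (edgeR adjusted p = 1.0). Myc in immune-marker cells of WT 1 was at 174 CPM, from 1 UMI, above the other WT libraries of batch 2, which held 0, and above the WT group as a whole. The log2 odds ratio of detecting Myc and Pvt1 together was highest among KO libraries in KO 4 (0.84) and lowest among WT libraries of batch 2 in WT 3 (-0.034).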

How the results depend on the processing

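Of 559 alternative values over 49 results, 523 kept their direction and their side of the threshold. Few cells and low depth limit the values of immune-marker and stromal-marker cells in batch 2.

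For Myc between KO and WT tumor-marker cells, the sign turned without the pooled KO libraries (-0.073) and with a replicate block (-0.0095), and leaving out each library gave -0.017 to 0.11, with the sign turned without WT 1 (-0.017) and KO 5+6 (-0.0011). No value passed. Replicate numbers were not taken as pairs. Same-number deviations correlated at -0.14 and -0.29, values too few to exclude pairing. The replicate block, over the batch 1 pair and numbers 1 and 4, changed no call. It gave Pvt1 at -0.16 and, in stromal-marker cells, Myc at 1.18 and Pvt1 at -1.11. Without the low-count filter, genes called between KO and WT were 22 higher and 14 lower in tumor-marker cells, 3 and 7 in immune-marker cells, where Pvt1 turned to 0.030, and 3 higher in stromal-marker cells. For the difference of KO effects, Pvt1 turned to 0.16 without TMM factors and 0.091 with DESeq2, and 1 gene was called higher in batch 2 alone.

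Against immune-marker cells, 2265 genes were called higher with DESeq2 and 6089 without the filter, and 923, 3021 and 570 lower with DESeq2, without the filter and in batch 2 alone; leaving out each library gave 876 to 1584 lower, fewest without WT batch 1 (876) and KO batch 1 (885). Against stromal-marker cells, 1061 were called higher without TMM factors, 616 with DESeq2, 2698 without the filter and 1108 at 5 tumor-marker UMIs, and 1340 lower without the filter. Myc there fell to 0.42 with DESeq2 and lost its call. Pvt1 in cycling cells gained a call in batch 2 alone (-0.11).

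Myc in immune-marker cells against ambient barcodes was -1.59 in batch 2 alone, chosen after seeing the data, and lost its call (exact sign-flip adjusted p = 0.070). The odds ratio difference of KO and WT turned at 1000 UMIs (-0.23) and without cells of another list (-0.017), and was -0.088 to 0.10 when leaving out each library, turned without WT 3 (-0.051) and KO 4 (-0.088). The lower Pvt1 share in KO passed at 5 tumor-marker UMIs (-1.03 points, exact permutation adjusted p = 0.043) and without KO 4; leaving out each library gave -1.77 to -1.22 points. At 5 UMIs over a list, Pvt1 in ambient against T-cell-marker (1.10) and T-cell-marker against myeloid-marker cells (0.74) lost their calls, over 3 and 2 libraries. The cause of these changes was not tested, other than that fewer libraries entered the last. Mean log2 odds ratios of Myc with Pvt1 ranged from 0.25 to 1.63, highest unthinned.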
